A study of Mus musculus with 3 samples.

Results

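The 4 Hox gene clusters of the mouse were described as 550 bins of 1 kb, out of 2557540 such bins of the usable genome. They were chosen by position alone, in the mm9 build. HoxA was chr6:52100001-52220000 (120 bins), HoxB was chr11:96050001-96240000 (190 bins), HoxC was chr15:102745001-102875000 (130 bins) and HoxD was chr2:74500001-74610000 (110 bins). The 200 kb on each side of a cluster, 400 bins per cluster and 1600 in all, served as its flanks. The study sequenced DNA bound by TET2, by OGT and by histone H2B carrying GlcNAc (H2B S112GlcNAc, named for its serine), after chromatin immunoprecipitation from untreated mouse embryonic stem (ES) cells. All 3 libraries came from cells labelled with strain C57BL/6 and grown on gelatin without feeder cells, in serum with ESGRO, a preparation of the cytokine LIF. The TET2 antibody was made in house, the OGT antibody was a commercial one and that against H2B S112GlcNAc came from another laboratory. Each antibody had 1 library, and no input or IgG library was used here. No transcript was measured, so the cell type rests on the labels.

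Hox genes encode homeodomain transcription factors that give cells along the body axis their positional identity. Within a cluster the genes lie in the order in which they act from head to tail, with the lowest numbered genes acting furthest forward. In ES cells the clusters are known as largely silent chromatin that Polycomb complexes cover with H3K27 methylation, and their promoters are rich in CpG islands. TET2 oxidises 5-methylcytosine, which in mammals lies mostly in CpG. OGT attaches GlcNAc to proteins, TET2 is known to bind it, and in the fly the gene for OGT belongs to the Polycomb group. In the RefSeq gene table, which is of build GRCm38.p6, all 39 Hox genes were found. In that build coordinates rise from the gene numbered 13 to Hoxb1, Hoxc4 and Hoxd1 in HoxB, HoxC and HoxD. Coordinates of the 2 builds differ, so no bin below is placed in a gene, exon, intron or promoter.

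The CpG content of the promoters is shown because CpG is where the substrate of TET2 mostly lies. Methylation was not measured here, so a CpG count is not a measure of that substrate. Promoter sequences were matched for 22 of the 39 Hox genes (24 start sites; 9 genes each of HoxA and HoxD, 3 of HoxB and 1 of HoxC), and the 250 bases before each start were examined. The median was 12.5 CpG, beside 6.00 for all 32851 promoters of the table. At least 10 CpG were found in 15 of the 24 (62.5%) and in 37.8% of all promoters. The range ran from 2 in front of a start of Hoxd11 to 35 in front of Hoxa13. Below is the matched promoter with the most CpG in each cluster, 5′ to 3′, with each CpG in capitals (RefSeq, GRCm38.p6). Hoxa13, which patterns limb ends and hindgut, has 35 (chr6:52260881-52261130, minus strand), and Hoxb4, known for its role in blood stem cells, has 14 (chr11:96318017-96318266, plus strand). Hoxc4 has 8 (chr15:103034145-103034394, plus strand), and Hoxd13, which patterns the digits, has 31 (chr2:74667975-74668224, plus strand). These coordinates are not comparable with the mm9 bins, and the mm9 sequence of the bins was not used here.
Hoxa13: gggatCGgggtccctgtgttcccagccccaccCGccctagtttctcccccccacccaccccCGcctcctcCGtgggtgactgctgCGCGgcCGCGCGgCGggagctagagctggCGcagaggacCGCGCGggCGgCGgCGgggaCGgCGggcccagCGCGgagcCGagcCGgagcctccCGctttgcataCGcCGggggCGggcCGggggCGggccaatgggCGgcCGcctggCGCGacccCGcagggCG
Hoxb4: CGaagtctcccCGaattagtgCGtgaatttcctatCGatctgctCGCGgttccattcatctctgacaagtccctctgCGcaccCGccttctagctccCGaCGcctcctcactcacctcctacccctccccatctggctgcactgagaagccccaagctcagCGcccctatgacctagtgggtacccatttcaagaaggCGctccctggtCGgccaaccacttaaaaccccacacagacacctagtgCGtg
Hoxc4: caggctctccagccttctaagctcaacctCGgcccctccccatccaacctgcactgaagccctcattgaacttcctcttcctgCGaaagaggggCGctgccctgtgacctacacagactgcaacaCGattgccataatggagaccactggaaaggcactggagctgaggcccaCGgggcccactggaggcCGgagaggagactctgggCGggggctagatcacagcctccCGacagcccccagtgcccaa
Hoxd13: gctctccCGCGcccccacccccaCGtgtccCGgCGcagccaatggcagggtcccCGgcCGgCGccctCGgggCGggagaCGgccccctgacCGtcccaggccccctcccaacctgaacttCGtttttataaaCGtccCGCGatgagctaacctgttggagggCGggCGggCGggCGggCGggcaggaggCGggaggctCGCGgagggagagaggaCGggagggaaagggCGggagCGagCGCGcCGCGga

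The libraries held 3832237 TET2, 2179445 OGT and 4647963 H2B S112GlcNAc reads. Reads with the same 5′ end and strand were counted once, and such a distinct 5′ end, moved 100 bp towards the fragment centre, is called a position. The mean over the genome was 1.29 TET2, 0.734 OGT and 1.57 H2B S112GlcNAc positions per kb. PCR copies of a fragment are not separate molecules. Intervals are exact at the 95% level, and none covers how preparations differ, which 1 library per antibody cannot show. Those of densities and ratios cover counting error only. Those of shares of bins treat each bin as an independent draw, although bins share a library and are not replicates. Since there was a single library of each kind, nothing here has a replicate check, no p-value is given, and every comparison describes these libraries.

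All 4 clusters were denser than the genome in all 3 libraries, and TET2 stood out furthest. The clusters together held 1788 TET2 positions (3.25 per kb), 749 OGT positions (1.36 per kb) and 1683 H2B S112GlcNAc positions (3.06 per kb). Over the library mean, TET2 stood at 2.52-fold (interval 2.41 to 2.64), OGT at 1.85-fold (1.72 to 1.99) and H2B S112GlcNAc at 1.95-fold (1.85 to 2.04). The flanks were themselves above the library mean, with TET2 at 1.36-fold and both OGT and H2B S112GlcNAc at 1.28-fold. Over their flanks the clusters were 1.86-fold denser in TET2 (1.75 to 1.97), 1.45-fold in OGT (1.32 to 1.58) and 1.52-fold in H2B S112GlcNAc (1.44 to 1.62). Repeated reads were fewer in the clusters than in the libraries, with 6.63% against 13.9% in TET2, 7.42% against 13.8% in OGT and 5.50% against 13.4% in H2B S112GlcNAc. The plus strand held 51.2%, 49.9% and 50.7% of positions over the 4 clusters. By cluster the interval left out an even split in 3 of 12 cases, at 41.7% for OGT (34.3 to 49.4) and 44.4% for H2B S112GlcNAc (39.2 to 49.7) in HoxA, and at 55.5% for H2B S112GlcNAc in HoxC (50.6 to 60.3).

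**Figure D1:**
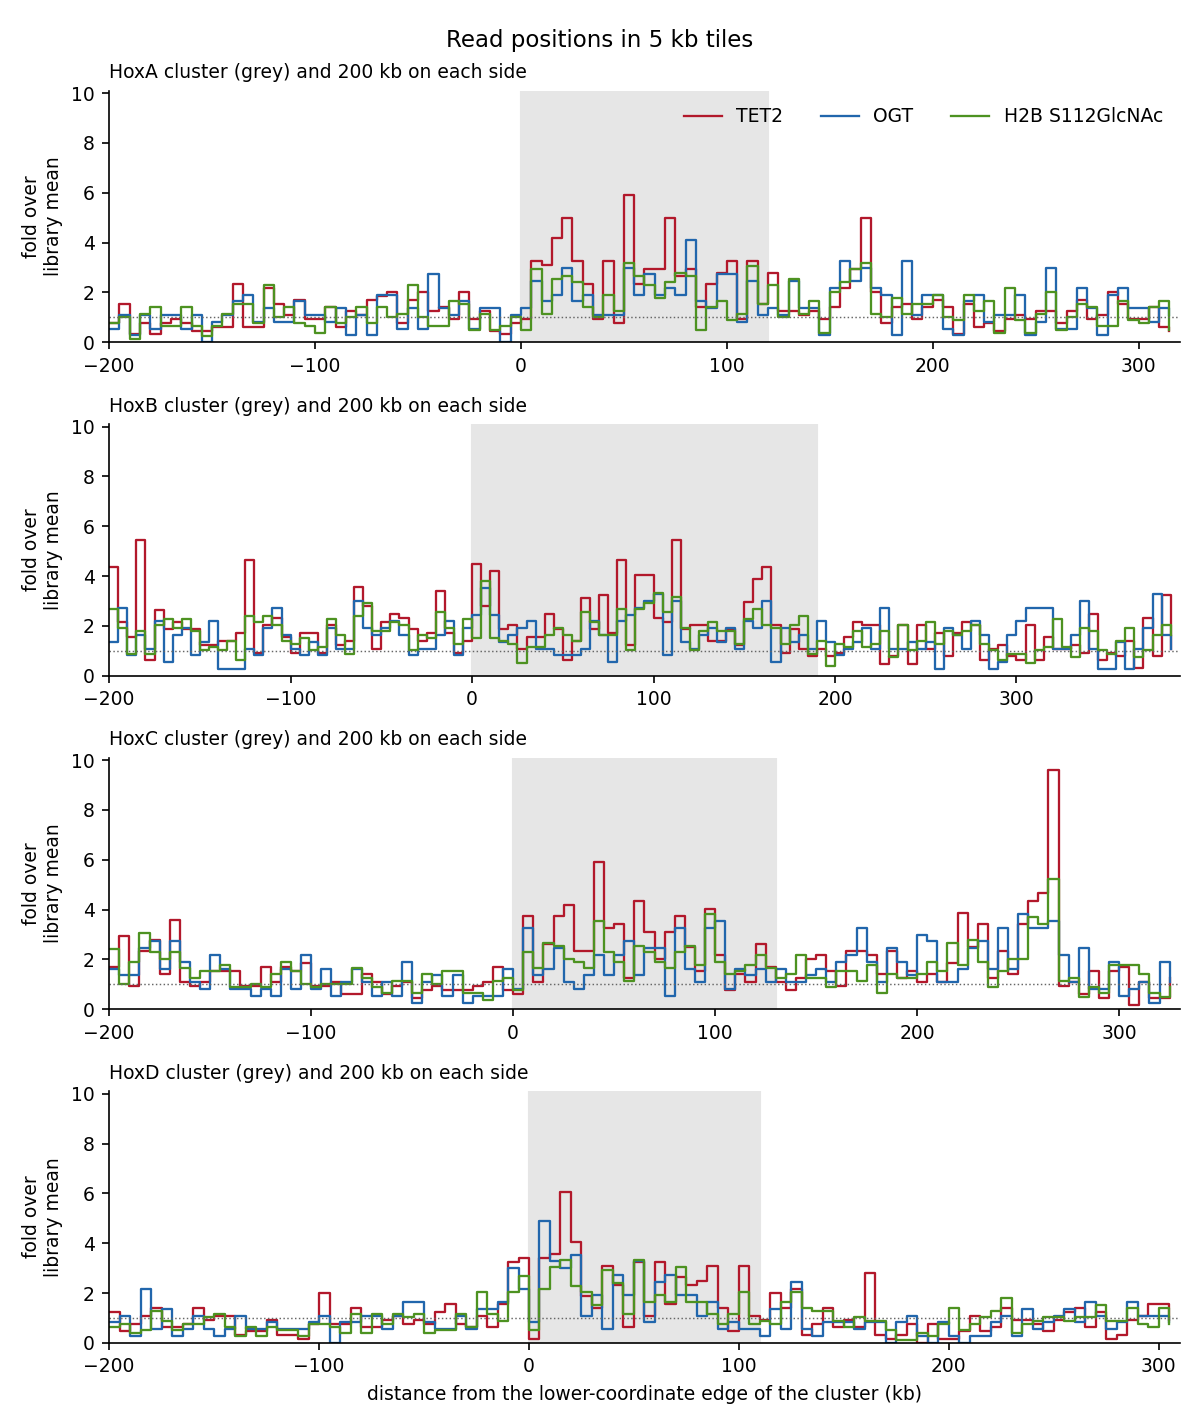
Positions in 5 kb tiles over the library mean (vertical axis, fold; dotted line at 1) against the distance from the lower-coordinate edge of each cluster (kb), for TET2 (red), OGT (blue) and H2B S112GlcNAc (green), with the cluster in grey. The grey spans of HoxA and HoxD stand above their flanks, while HoxB lies in raised surroundings and the highest tile of HoxC's surroundings (TET2, 9.62-fold) lies beyond the cluster.

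HoxA was the cluster with the highest TET2 density. It held 433 TET2 positions, 2.80-fold the library mean (2.54 to 3.08), against 175 OGT positions (1.99-fold, 1.70 to 2.30) and 360 H2B S112GlcNAc positions (1.91-fold, 1.72 to 2.12). HoxC followed with 442 TET2 positions (2.64-fold, 2.40 to 2.90), 174 OGT positions (1.82-fold, 1.56 to 2.12) and 422 H2B S112GlcNAc positions (2.06-fold, 1.87 to 2.27). HoxD held 337 TET2 positions (2.38-fold, 2.13 to 2.65), 154 OGT positions (1.91-fold, 1.62 to 2.23) and 331 H2B S112GlcNAc positions (1.91-fold, 1.71 to 2.13). HoxB held 576 TET2 positions (2.35-fold, 2.16 to 2.55), 246 OGT positions (1.76-fold, 1.55 to 2.00) and 570 H2B S112GlcNAc positions (1.91-fold, 1.75 to 2.07). In each cluster TET2 thus led over the library mean, and the intervals of OGT and H2B S112GlcNAc overlapped. In HoxD the TET2 interval also overlapped that of OGT and met that of H2B S112GlcNAc at 2.13. Scaled to library totals, TET2 in HoxD was 1.25 times OGT (1.03 to 1.52) and 1.24 times H2B S112GlcNAc (1.06 to 1.45).

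Between clusters the densities were close. Of the 6 pairs of clusters, the interval of the density ratio lay off 1 in 2 for TET2, HoxA over HoxB (1.19, 1.05 to 1.35) and HoxA over HoxD (1.18, 1.02 to 1.36). It lay off 1 in 0 of 6 for OGT, where ratios ran from 0.925 to 1.13, and in 0 of 6 for H2B S112GlcNAc, where they ran from 0.924 to 1.08. The intervals for OGT reached 0.753 and 1.37, so smaller differences between clusters were not detectable at this depth. No interval was adjusted for the number of pairs. Set beside all tiles of the same length in the genome, 1.24% were at least as dense in TET2 as HoxA, 1.60% as HoxC, 2.96% as HoxB and 3.07% as HoxD. These shares were 5.39% to 8.55% in OGT and 4.27% to 6.39% in H2B S112GlcNAc. The clusters were thus among the denser stretches in each library without being outside the range of other stretches. The tiles are not matched for base composition, gene content or mappability.

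Against their own surroundings the clusters differed more. HoxD had the highest values over both flanks together, at 2.51 in TET2 (2.18 to 2.89), 2.19 in OGT (1.78 to 2.68) and 2.15 in H2B S112GlcNAc (1.87 to 2.46). HoxA followed at 2.28 (2.02 to 2.58), 1.57 (1.30 to 1.88) and 1.58 (1.39 to 1.79). HoxC had 1.65 (1.46 to 1.85), 1.19 (0.991 to 1.42) and 1.4 (1.24 to 1.57), and HoxB 1.42 (1.28 to 1.58), 1.21 (1.03 to 1.42) and 1.24 (1.12 to 1.38). The interval for OGT in HoxC included 1. The fold over flanks of HoxD exceeded that of HoxB and that of HoxC in every library, with ratios of HoxB to HoxD from 0.554 to 0.579 and of HoxC to HoxD from 0.543 to 0.656, and every interval below 1. HoxD also exceeded HoxA in OGT (HoxA over HoxD 0.717, 0.543 to 0.947) and H2B S112GlcNAc (0.737, 0.610 to 0.891), but for TET2 the interval included 1 (0.909, 0.753 to 1.1).

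The order over flanks followed the flanks. Those of HoxD were near or below the library mean (0.947-fold in TET2, 0.872 in OGT, 0.892 in H2B S112GlcNAc), those of HoxA were at 1.21 to 1.27, and those of HoxC (1.48 to 1.60) and HoxB (1.45 to 1.65) were higher. The sides were unequal too, and against the lower-coordinate flank alone TET2 was at 2.54 in HoxA (2.18 to 2.96) and 2.37 in HoxD (2.01 to 2.80), the reverse order. HoxB in TET2 was 1.18-fold its lower-coordinate flank (1.05 to 1.33) and 1.79-fold its upper one (1.56 to 2.05). HoxC in OGT was 1.5-fold its lower flank (1.21 to 1.85) and 0.984-fold its upper one (0.809 to 1.19). The upper flank of HoxC holds the densest 5 kb tile of TET2 in any of the flanks, chr15:103010001-103015000, with 62 TET2, 13 OGT and 41 H2B S112GlcNAc positions. With flanks of 100 kb, which leave that tile out, HoxC had 1.98 in TET2 and HoxA 1.94. In H2B S112GlcNAc HoxC then had 1.60 and HoxA 1.41, while in OGT HoxA stayed above HoxC (1.42 and 1.33). The order of HoxA and HoxC over their flanks thus depended on the flank width in TET2 and H2B S112GlcNAc.

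**Figure D2:**
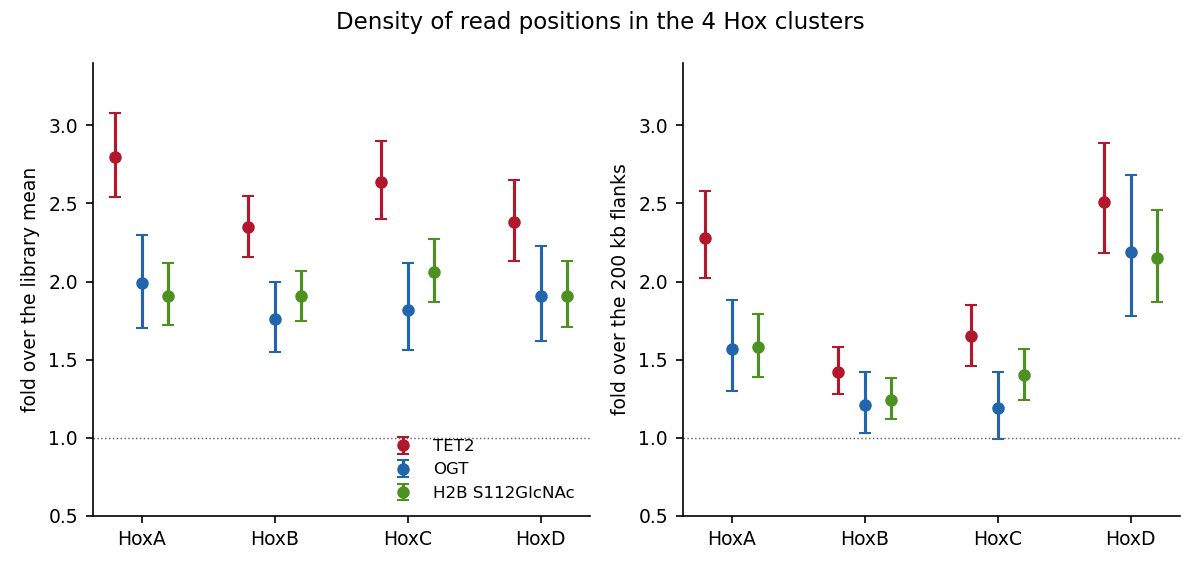
Density of positions in each cluster over the library mean (left) and over its 200 kb flanks (right) for TET2 (red), OGT (blue) and H2B S112GlcNAc (green); points are the values of 1 library each, bars are 95% counting intervals and the dotted line marks 1. On the left TET2 lies above both others in each cluster, at 2.35 to 2.80, and on the right HoxD and HoxA lie above HoxC and HoxB in TET2.

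Density fell with distance outside HoxA and dropped sharply outside HoxD. Around HoxA, TET2 was 1.57-fold the library mean within 50 kb of the edges (1.36 to 1.80), then 1.32, 1.08 and 0.939 in the next 3 steps of 50 kb. OGT went through 1.53, 1.28, 1.2 and 1.06, and H2B S112GlcNAc through 1.44, 1.27, 1.16 and 0.954. Around HoxD TET2 was at 1.30, OGT at 1.08 and H2B S112GlcNAc at 1.19 within 50 kb, and between 50 and 100 kb 0.791, 0.736 and 0.719. The 5 kb just below the lower edge of HoxD, chr2:74495001-74500000, held 22 TET2, 8 OGT and 21 H2B S112GlcNAc positions (3.41-fold in TET2). The first 5 kb inside that edge held 1, 3 and 4, so this raised stretch outside was separated from the raised part of the cluster. HoxB showed no such fall (1.66, 1.55, 1.48 and 1.92 in TET2), and around HoxC the step from 100 to 150 kb was the highest (2.34 in TET2, 1.92 in OGT and 1.80 in H2B S112GlcNAc).

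TET2 exceeded the other libraries by more in the clusters than in their surroundings. Scaled to library totals, the clusters had 1.36 times as many TET2 as OGT positions (1.25 to 1.48), and the flanks 1.06 times (0.994 to 1.13). The ratio in the clusters over that in the flanks was 1.28 (1.15 to 1.43). For TET2 over H2B S112GlcNAc the clusters had 1.30 (1.21 to 1.39), the flanks 1.06 (1.01 to 1.12), and the ratio of these was 1.22 (1.12 to 1.33). For OGT over H2B S112GlcNAc the intervals included 1, at 0.953 in the clusters (0.874 to 1.04), 1.0 in the flanks and a ratio of 0.95 (0.853 to 1.06).

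By cluster, the gain of TET2 over OGT relative to the flanks was 1.46 in HoxA (1.17 to 1.82) and 1.39 in HoxC (1.12 to 1.72). In HoxB (1.17, 0.966 to 1.42) and HoxD (1.15, 0.894 to 1.48) the interval included 1. Over H2B S112GlcNAc it was 1.44 in HoxA (1.21 to 1.73), while HoxB (1.14, 0.984 to 1.33), HoxC (1.18, 0.996 to 1.39) and HoxD (1.17, 0.959 to 1.43) had intervals that included 1. HoxA was therefore the cluster whose interval lay above 1 against both other libraries. Whether the gain differed between clusters was not tested.

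Single bins carried the excess unevenly. A bin counted as past the fold with at least 4 positions and at least 4 times the library mean, which came to 6 positions in TET2, 4 in OGT and 7 in H2B S112GlcNAc. Of the 550 bins, 96 passed in TET2 (17.5%, 14.4 to 20.9), beside 2.32% of all bins and 3.81% of the flanks. In OGT 47 passed (8.55%, 6.35 to 11.2), beside 2.11% of all bins and 3.25% of the flanks. In H2B S112GlcNAc 63 passed (11.5%, 8.92 to 14.4), beside 1.65% of all bins and 2.69% of the flanks. With every library drawn down to the depth of OGT, where 4 positions are asked of each, 87 bins passed in TET2, 47 in OGT and 65 in H2B S112GlcNAc (15.8%, 8.55% and 11.8%), beside 2.46%, 2.11% and 2.02% of all bins. TET2 therefore led at equal depth as well. At 6 times the library mean, 60 bins passed in TET2, 27 in OGT and 18 in H2B S112GlcNAc (10.9%, 4.91% and 3.27%). Of all bins 0.960%, 0.851% and 0.352% passed. By count H2B S112GlcNAc thus fell behind OGT with this threshold, but its share of all bins was also lower than that of OGT.

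HoxA had the most TET2 bins past the fold for its length, 29 of 120 (24.2%, 16.8 to 32.8), then HoxC with 26 of 130 (20.0%, 13.5 to 27.9), HoxD with 19 of 110 (17.3%, 10.7 to 25.7) and HoxB with 22 of 190 (11.6%, 7.40 to 17.0). In OGT the counts were 16 in HoxA (13.3%), 10 in HoxD (9.09%), 9 in HoxC (6.92%) and 12 in HoxB (6.32%). In H2B S112GlcNAc they were 17 in HoxD (15.5%), 15 in HoxA (12.5%), 14 in HoxC (10.8%) and 17 in HoxB (8.95%). HoxB was lowest by share in each library, although the intervals of neighbouring clusters overlapped. Bins with no position were fewer than in the flanks, with 15.3% of the 550 bins against 24.7% in TET2, 34.0% against 43.8% in OGT and 12.9% against 19.3% in H2B S112GlcNAc. Over the genome 39.1%, 54.7% and 31.0% of bins were empty, and bins empty in all 3 libraries made up 2.36% of the clusters and 12.2% of the genome. Bins where reads cannot be placed would be empty in all 3, and their part in the densities was not tested.

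**Figure D3:**
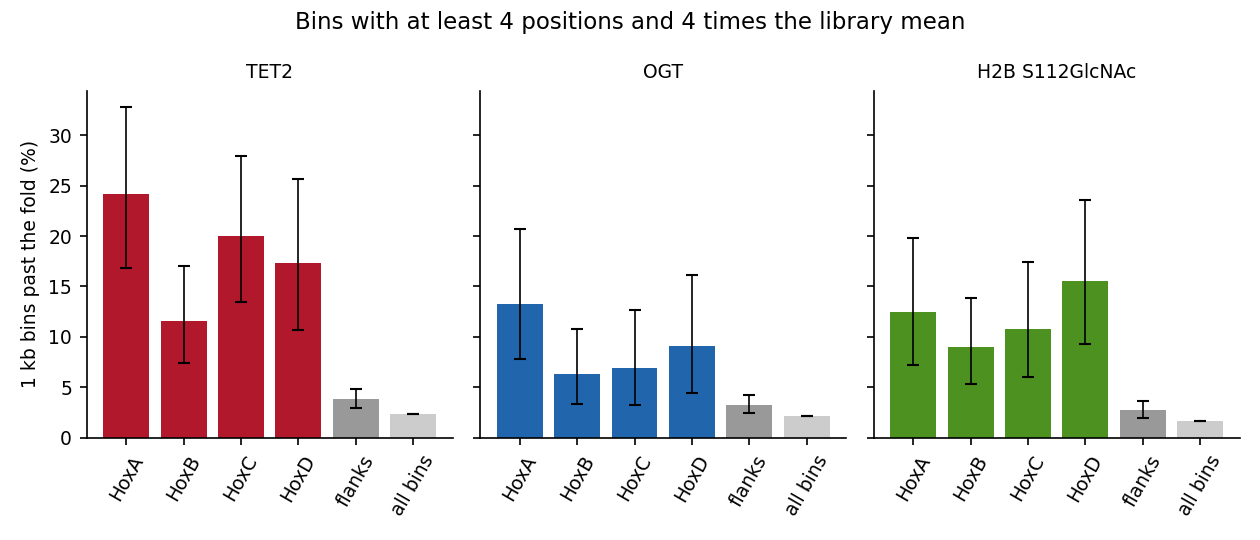
Share of 1 kb bins (%) with at least 4 positions and at least 4 times the library mean, by cluster (coloured bars), in the flanks of all 4 clusters together and in all bins of the genome (grey), with 95% Clopper-Pearson intervals for clusters and flanks. In TET2 the cluster bars run from 11.6% to 24.2%, above the 3.81% of the flanks and the 2.32% of all bins.

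Part of the TET2 density over the library mean lay outside the bins past the fold. When bins past the fold in any library were left out of clusters, flanks and genome, TET2 was still 1.82-fold the library mean in HoxA, 1.89 in HoxB, 1.82 in HoxC and 1.49 in HoxD. Over the flanks the values fell to 1.45, 1.13, 1.24 and 1.46 for TET2. Over the flanks OGT was then at 1.09 in HoxA, 1.11 in HoxB, 1.04 in HoxC and 1.36 in HoxD, and H2B S112GlcNAc at 1.19, 1.11, 1.24 and 1.4, so little excess over the flanks was left in HoxB and, for OGT, in HoxA and HoxC. Leaving out dense bins lowers these values by construction.

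The libraries tended to be dense in the same bins of the clusters. Of the 127 bins past the fold in any library, 67 passed in 1, 41 in 2 and 19 in all 3. TET2 and H2B S112GlcNAc shared 44 bins, which is 45.8% of those of TET2 and 69.8% of those of H2B S112GlcNAc. TET2 and OGT shared 28 (29.2% and 59.6%), and OGT and H2B S112GlcNAc 26 (55.3% and 41.3%). Over all bins of the genome the shares were 29.5% and 41.4%, 28.3% and 31.1%, and 23.1% and 29.6%. Bins past the fold were themselves more frequent in the clusters, at 17.5%, 8.55% and 11.5% of bins in TET2, OGT and H2B S112GlcNAc. In the genome 2.32%, 2.11% and 1.65% passed. A higher frequency raises such shares, so no closer match in the clusters is concluded from them. HoxA held 9 of the 19 bins that passed in all 3.

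Measured without a threshold in the second library, bins that were past the fold in TET2 held 2.76 OGT positions per kb against 1.07 in the other bins of the clusters, a ratio of 2.59 (2.22 to 3.01). For H2B S112GlcNAc they held 5.96 against 2.45, a ratio of 2.43 (2.20 to 2.70). The contrast was smaller than over the whole genome, where the ratios were 5.15 and 4.40 (counting intervals 5.12 to 5.17 and 4.38 to 4.41). Over the library mean, OGT was at 3.76-fold in these bins and 1.45-fold in the other bins of the clusters, against 4.69-fold and 0.912-fold over the genome. In the flanks the ratios were 2.85 (2.40 to 3.37) and 2.91 (2.59 to 3.26). Across the 55 tiles of 10 kb in the clusters, TET2 and H2B S112GlcNAc had a Pearson's r of 0.726 (Spearman's rho 0.687), TET2 and OGT one of 0.50 (0.492), and OGT and H2B S112GlcNAc one of 0.465 (0.442). Over the 160 tiles of the flanks r was 0.770, 0.636 and 0.637 (rho 0.656, 0.617 and 0.591), so the order of clusters and flanks for TET2 and H2B S112GlcNAc differed between r and rho. It also differed between clusters. For TET2 and OGT, r was 0.737 in HoxB (19 tiles) beside 0.119 in its flanks (40 tiles), and 0.146 in HoxC (13 tiles) beside 0.742 in its flanks (40 tiles). These tiles share base composition and mappability between libraries, and OGT has the fewest positions per tile.

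Within HoxA, TET2 was raised in 2 stretches with a lower one between them. Here and in the other clusters, the highest and lowest tiles and densest bins were picked by their own counts. Their intervals do not allow for that choice, so high values lean upward and low ones downward. The highest 10 kb tiles were chr6:52120001-52130000 and the tile from 52150001, each with 53 TET2 positions (4.11-fold, 3.08 to 5.38), and the lowest was chr6:52130001-52140000 with 21 (1.63-fold, 1.01 to 2.49). The first stretch held 47 positions in its other tile, and the second went on with 38 and 49. For H2B S112GlcNAc the tile from 52150001 was also the highest (46 positions, 2.93-fold), and the lowest was chr6:52200001-52210000 (16 positions, 1.02-fold). OGT was highest in another tile, chr6:52180001-52190000 (21 positions, 2.86-fold, 1.77 to 4.37), and lowest in chr6:52140001-52150000 (8 positions, 1.09-fold, 0.470 to 2.15). From the lower-coordinate end, 5 equal parts of 24 kb held 106, 67, 110, 82 and 68 TET2 positions. The first exceeded the last 1.56-fold in TET2 (1.14 to 2.15), and the intervals included 1 for OGT (1.23, 0.743 to 2.04) and H2B S112GlcNAc (1.33, 0.932 to 1.90).

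The densest single bins of HoxA differed between libraries in part. In TET2 they were chr6:52120001-52121000 with 16 TET2, 5 OGT and 7 H2B S112GlcNAc positions, chr6:52153001-52154000 with 15, 3 and 10, and chr6:52171001-52172000 with 14, 4 and 12. The first of these is 12.4-fold the TET2 mean (7.10 to 20.2). In OGT the densest was chr6:52184001-52185000 with 7 TET2, 8 OGT and 9 H2B S112GlcNAc positions (10.9-fold the OGT mean, 4.70 to 21.5), which was 5.43-fold in TET2. It was followed by chr6:52210001-52211000 with 9, 6 and 14, which was also the densest of H2B S112GlcNAc (8.90-fold, 4.87 to 14.9), and by the bin from 52120001. H2B S112GlcNAc further had the bin from 52171001 and chr6:52108001-52109000 with 14 TET2, 4 OGT and 10 H2B S112GlcNAc positions. All 6 of these bins were past the fold in both TET2 and H2B S112GlcNAc, and that from 52153001 was not past it in OGT.

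HoxB, the longest cluster, alternated between high and low TET2 tiles. From the Hoxb13 side TET2 fell from 47 positions in the first 10 kb (3.65-fold) to 20 in each of the tiles from 96070001 and 96080001, had 28 in the tile from 96090001 and 13 in that from 96100001 (1.01-fold), and was highest in chr11:96140001-96150000 (52 positions, 4.04-fold, 3.01 to 5.29). OGT followed with 22 positions in the first tile, chr11:96050001-96060000 (3.0-fold, 1.88 to 4.54), and its lowest, 6, in chr11:96100001-96110000 (0.817-fold, 0.300 to 1.78). H2B S112GlcNAc was lowest earlier, in chr11:96070001-96080000 (14 positions, 0.890-fold), and highest in chr11:96150001-96160000 (46 positions, 2.93-fold, 2.14 to 3.90). Further low TET2 tiles began at 96180001 (18 positions) and 96190001 (20). The lowest was the last, chr11:96230001-96240000, the Hoxb1 side, with 12 TET2 positions (0.931-fold, 0.481 to 1.63), where H2B S112GlcNAc still had 26 (1.65-fold). Of 5 parts of 38 kb the middle one was the densest in every library, namely 153 TET2, 64 OGT and 145 H2B S112GlcNAc positions. Between the first and the last part no interval lay off 1.

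The densest TET2 bin of all 4 clusters lay at the Hoxb13 end of HoxB. This was chr11:96051001-96052000, with 21 TET2 (16.3-fold, 10.1 to 24.9), 8 OGT (10.9-fold, 4.70 to 21.5) and 3 H2B S112GlcNAc positions (1.91-fold). TET2 and OGT were thus high there and H2B S112GlcNAc was not past the fold. The next for both TET2 and OGT were chr11:96064001-96065000 (18 positions of TET2, 7 of OGT, 8 of H2B S112GlcNAc) and chr11:96214001-96215000 with 18, 5 and 7. H2B S112GlcNAc led elsewhere, in chr11:96144001-96145000 with 16 TET2, 4 OGT and 12 H2B S112GlcNAc positions, chr11:96133001-96134000 with 17, 0 and 10, and chr11:96148001-96149000 with 7, 3 and 10. In the bin from 96133001 TET2 was at 13.2-fold and H2B S112GlcNAc at 6.36-fold beside 0 OGT positions, a count that allows up to 3 by the one-sided limit for a count of 0.

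HoxC showed alternating high and low TET2 tiles in its lower part. TET2 was highest in chr15:102785001-102795000 (59 positions, 4.58-fold, 3.49 to 5.91), with 51 and 48 in the tiles 20 kb to either side and 30 in each of the tiles between. H2B S112GlcNAc was highest in the same tile (46 positions, 2.93-fold). OGT held 13 positions in the tile that led for the other libraries, while its own counts ran from 8 in chr15:102775001-102785000 (1.09-fold, 0.470 to 2.15) to 18 in chr15:102795001-102805000 (2.45-fold, 1.45 to 3.88, shared with 1 other tile). The ratio of its highest to its lowest tile was 2.25, with an interval that included 1 (0.931 to 5.98). TET2 was lowest in chr15:102855001-102865000 (16 positions, 1.24-fold), and H2B S112GlcNAc in the first tile, chr15:102745001-102755000 (24 positions, 1.53-fold, shared with 1 other tile). The first of 5 parts, the Hoxc13 side, exceeded the last, the Hoxc4 side, 1.74-fold in TET2 (1.22 to 2.52), with intervals that included 1 for OGT (1.38, 0.813 to 2.39) and H2B S112GlcNAc (1.25, 0.898 to 1.75).

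In HoxC, 12 of the TET2 bins past the fold also passed in H2B S112GlcNAc and 6 in OGT. The top single bin was nonetheless the same for TET2 and OGT. The densest of both was chr15:102829001-102830000 with 17 TET2 (13.2-fold), 9 OGT (12.3-fold, 5.61 to 23.3) and 6 H2B S112GlcNAc positions (3.82-fold). Both also had chr15:102752001-102753000 among their leading bins, (12 positions of TET2, 6 of OGT, 4 of H2B S112GlcNAc) and TET2 had chr15:102785001-102786000 with 12, 5 and 9. The bin chr15:102812001-102813000 with 9 TET2, 6 OGT and 12 H2B S112GlcNAc positions was the densest of H2B S112GlcNAc and, in a tie, among the next of OGT. Next for H2B S112GlcNAc were chr15:102806001-102807000 with 11, 2 and 11 and chr15:102842001-102843000 with 7, 2 and 11.

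HoxD had the largest ratio between its ends in each library. The lowest of 5 parts of 22 kb, the Hoxd13 side, held 109 TET2, 56 OGT and 88 H2B S112GlcNAc positions, and the highest, the Hoxd1 side, held 46, 11 and 42. The ratio was 2.37 in TET2 (1.66 to 3.42), 5.09 in OGT (2.64 to 10.8) and 2.10 in H2B S112GlcNAc (1.44 to 3.10). All 3 libraries had their highest 10 kb tile in chr2:74510001-74520000, with 62 TET2 (4.81-fold, 3.69 to 6.17), 23 OGT (3.13-fold, 1.99 to 4.70) and 50 H2B S112GlcNAc positions (3.18-fold, 2.36 to 4.19). The lowest was chr2:74590001-74600000 for TET2 (12 positions) and H2B S112GlcNAc (15), and the last tile, chr2:74600001-74610000, for OGT (4 positions, 0.545-fold, 0.148 to 1.4). In that last tile TET2 had 27 positions (2.10-fold). The middle parts did not form a steady gradient, with 54, 62 and 66 TET2 positions.

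**Figure D4:**
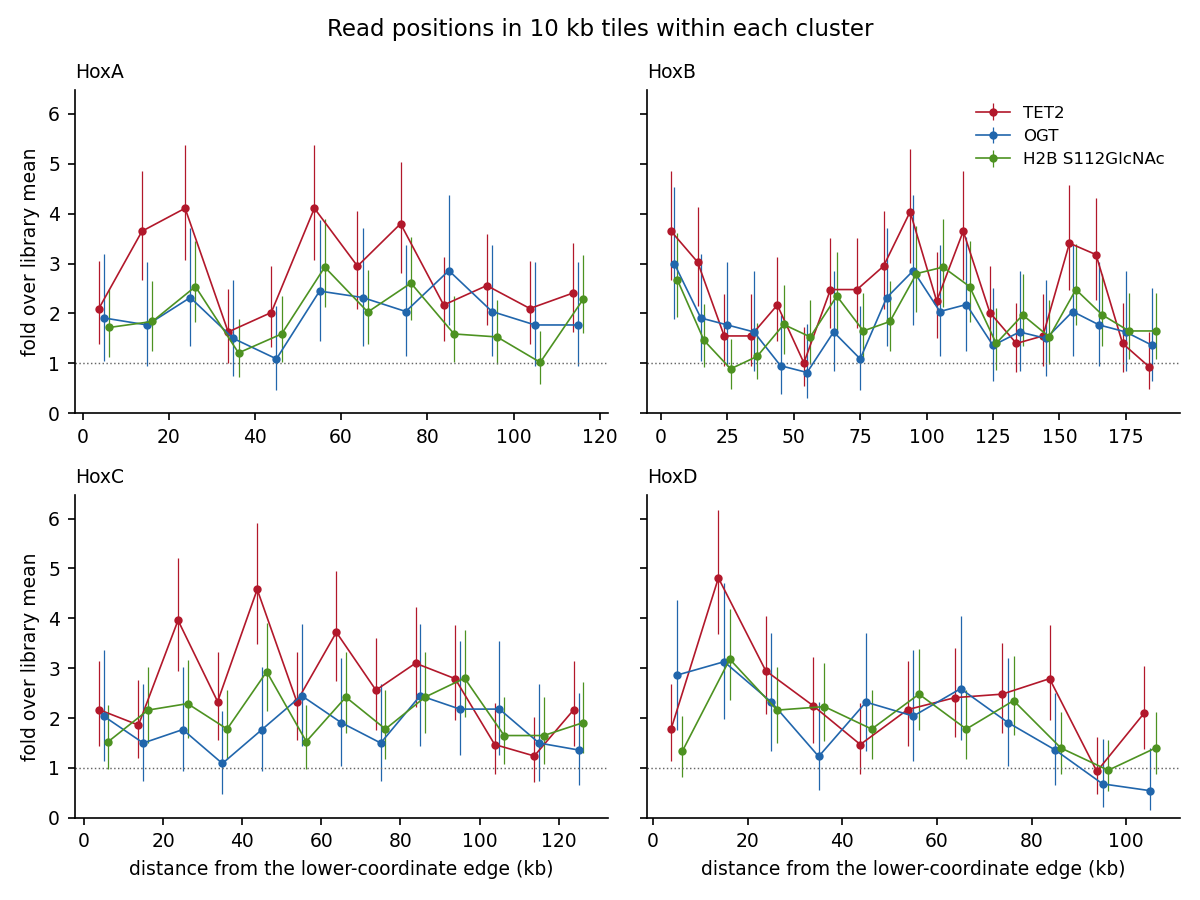
Positions in 10 kb tiles over the library mean (vertical axis, fold; dotted line at 1) against distance from the lower-coordinate edge of each cluster (kb), for TET2 (red), OGT (blue) and H2B S112GlcNAc (green), with exact 95% Poisson intervals. The lower-coordinate end is the side of the gene numbered 13 in HoxB, HoxC and HoxD; in HoxD all 3 libraries peak in the second tile (4.81, 3.13 and 3.18-fold) and OGT ends at 0.545.

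The longest run of neighbouring bins past the fold also lay near the Hoxd13 end. In TET2 it was chr2:74517001-74522000, 5 bins (57 positions of TET2, 23 of OGT, 41 of H2B S112GlcNAc) and in H2B S112GlcNAc it was the last 4 bins of the same stretch. In HoxA and HoxC the longest TET2 run was 2 bins, and in HoxB 4 bins (chr11:96160001-96164000, 31 TET2 positions). Over the 4 clusters 38.5% of TET2 bins past the fold had a neighbour past it (28.8 to 49.0), beside 32.1% in the genome. In OGT the shares were 17.0% (7.65 to 30.8) and 19.5%, and in H2B S112GlcNAc 28.6% (17.9 to 41.3) and 25.5%. For TET2 and H2B S112GlcNAc the share was highest in HoxD, at 57.9% (33.5 to 79.7) and 47.1% (23.0 to 72.2). In the other clusters TET2 ran from 27.3% to 38.5%. For OGT it was highest in HoxA, at 25.0% (7.27 to 52.4), beside 20.0% in HoxD (2.52 to 55.6). Bins past the fold are more frequent in the clusters than in the genome, which raises the share with a neighbour. No conclusion is therefore drawn from these shares.

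The densest OGT bin of the 4 clusters was chr2:74506001-74507000, also in that part of HoxD. It held 15 OGT positions (20.4-fold, 11.4 to 33.7), 11 TET2 (8.54-fold) and 12 H2B S112GlcNAc (7.63-fold), and it led H2B S112GlcNAc in HoxD as well. OGT next had chr2:74520001-74521000 (15 positions of TET2, 10 of OGT, 7 of H2B S112GlcNAc) and chr2:74513001-74514000 with 3, 7 and 4. The latter was past the fold in OGT alone. TET2 led in chr2:74519001-74520000 with 17 TET2 and 1 OGT position beside 7 of H2B S112GlcNAc, then in the neighbouring bin from 74520001, and then in chr2:74601001-74602000 with 14, 1 and 7. These neighbouring kilobases had 1 and 10 OGT positions, while TET2 had 17 and 15. The stretch chr2:74519501-74520250, which spans the edge between them, held 23 TET2 and 6 OGT positions. The contrast in OGT thus depends in part on where the edge of the bins falls. H2B S112GlcNAc further had chr2:74518001-74519000 (9 positions of TET2, 5 of OGT, 11 of H2B S112GlcNAc) and chr2:74536001-74537000 with 9, 1 and 11.

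Enriched regions were narrow. They were joined from windows of 500 bp that held at least 4-fold the local background and had a one-sided Poisson tail, adjusted over the genome by the Benjamini-Hochberg method, under 0.01. The clusters held 12 TET2 regions, 3 of OGT and 2 of H2B S112GlcNAc, which is 2.18, 0.545 and 0.364 per 100 kb. The genome held 0.378, 0.0710 and 0.109 per 100 kb, and 0.162%, 0.0304% and 0.0440% of its windows passed. The flanks held 9, 1 and 2 regions, which is 0.562, 0.0625 and 0.125 per 100 kb. A raised local background asks for more positions, so this rule and the rule per bin count different things.

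The TET2 regions were spread over all 4 clusters. In HoxD the region with the most positions of any, chr2:74519501-74520250, held 23 TET2, 6 OGT and 9 H2B S112GlcNAc positions at 9.23-fold the local background. Also in HoxD, chr2:74600751-74601750 held 19, 1 and 7 (11.8-fold) and chr2:74584501-74585250 held 12, 2 and 2 (7.34-fold). In HoxB they were chr11:96051251-96052000 with 19, 8 and 2 (12.7-fold, the highest in the clusters for TET2), chr11:96214001-96215000 with 18, 5 and 7, chr11:96063751-96064500 with 12, 5 and 4 and chr11:96144501-96145000 with 11, 3 and 6. HoxC had chr15:102751751-102752500 with 16, 5 and 4 and chr15:102829501-102830250 with 14, 8 and 4. In HoxA they were chr6:52153751-52154250 with 12, 4 and 5, chr6:52171751-52172250 with 11, 3 and 5 and chr6:52210751-52211250 with 10, 3 and 5. In these 12 regions, which were chosen by TET2, OGT ran from 1.36-fold its own mean (the region from 74600751) to 14.5-fold (those from 96051251 and 102829501), and H2B S112GlcNAc from 1.70-fold to 7.63-fold.

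The OGT regions were chr6:52184501-52185000 with 3 TET2, 8 OGT and 7 H2B S112GlcNAc positions (9.71-fold), chr11:96051251-96051750 with 13, 8 and 1 (12.4-fold), and chr2:74506251-74507000 with 10, 14 and 10 (14.0-fold). The one in HoxB overlapped a TET2 region and was the single overlap between libraries in the clusters. Those of H2B S112GlcNAc were chr6:52209751-52210500 with 5, 2 and 12 (8.08-fold) and chr11:96132751-96133250 with 6, 0 and 12 (6.93-fold). No OGT region was called in HoxC and no H2B S112GlcNAc region in HoxC or HoxD. Few repeated reads lay behind these counts, for example 23 TET2 reads at the 23 positions of the region from 74519501 and 15 OGT reads at the 14 of that from 74506251. The region from 96144501 had the most, with 10 H2B S112GlcNAc reads at 6 positions. With the adjusted tail at 1e-05, 3 TET2 regions, 1 OGT region and 0 H2B S112GlcNAc regions were left. None of the bins in the clusters was among the 1013 bins of the genome in the top 0.1% of all 3 libraries.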

How the data were processed

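Per the labels' protocols, sonicated chromatin was bound by antibody, and adaptor-ligated fragments were size-selected and put through PCR. The authors deposited aligned reads of 44 bp, 1 per line, with a score that was constant in every line of the deposited files and carried no measurement. The submitters' processing notes name CASAVA 1.4, Bowtie 0.12.2 and build mm9, with no role or order. The sources used here do not say how reads with several matches were treated.

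Reads were counted on chromosomes 1 to 19 and X, in 10 kb stretches with a read in any library (2557540 bins of 1 kb). Ratios have exact conditional binomial intervals, densities exact Poisson ones and shares Clopper-Pearson ones. The local background of a window was the largest of 3 means, those of the genome, of 50 kb and of 10 kb around it (without the window itself and 500 bp either side). Calls ran over 10230140 windows every 250 bp. Tiles of equal length counted if at least 90% of them was usable. Named bins are the 3 densest of each cluster and library, named tiles the highest and lowest, and named regions all regions in the clusters. The clusters and rules were chosen with earlier results of these data known, and the steps of 50 kb, runs, ends of clusters, equal-length tiles, 5 kb tiles and the densities at bins past the fold of another library were added once the data had been seen. Alternatives were counting every read, no shift, leaving out extreme bins or bins past the fold, drawing down to the smallest library, other flanks or scaling, and stricter rules. Python 3.11.15, numpy 2.4.6 and scipy 1.17.1 were used.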

Additional observations from a re-analysis of the deposited data

How the results depend on the processing

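No paired analysis was possible because only 1 library was made with each antibody. The alternatives gave 183 values for the main results, of which 126 stayed within the 95% interval of the value reported (counts within 1.5 times) and 57 moved. All 72 densities over the library mean stayed above 1, and so did 95 of the 96 over flanks, the exception being OGT in HoxC, at 0.984 with the upper flank alone against 1.19 (interval 0.991 to 1.42). Values below are for TET2, OGT and H2B S112GlcNAc in turn. Over the library mean, scaling by the median of 10 kb bins gave 3.61, 2.43 and 2.31 in HoxA, 3.03, 2.16 and 2.31 in HoxB, 3.4, 2.23 and 2.50 in HoxC and 3.06, 2.33 and 2.31 in HoxD. Leaving out bins past the fold gave 1.82, 1.39 and 1.4 in HoxA, 1.89, 1.61 and 1.75 in HoxB, 1.82, 1.64 and 1.78 in HoxC and 1.49, 1.25 and 1.30 in HoxD, and over the flanks 1.45, 1.09 and 1.19 in HoxA, 1.13, 1.11 and 1.11 in HoxB, 1.24, 1.04 and 1.24 in HoxC and 1.46, 1.36 and 1.4 in HoxD, which lowers values by construction. The lower-coordinate flank alone gave 2.54, 1.91 and 1.88 in HoxA, 1.18, 1.23 and 1.1 in HoxB, 2.05, 1.5 and 1.55 in HoxC and 2.37, 2.01 and 2.28 in HoxD, and the upper-coordinate flank alone 2.07, 1.33 and 1.36 in HoxA, 1.79, 1.19 and 1.42 in HoxB, 1.38, 0.984 and 1.27 in HoxC and 2.66, 2.39 and 2.03 in HoxD. With flanks of 100 kb the folds that moved were 1.94 for TET2 in HoxA, and 1.98 for TET2 and 1.60 for H2B S112GlcNAc in HoxC. Counting every read moved TET2 in HoxA to 2.53 and H2B S112GlcNAc in HoxB to 1.74 over the library mean, and drawing down moved H2B S112GlcNAc in HoxA to 1.85 over flanks. Not moving the 5′ ends and leaving out extreme bins changed no density beyond its interval. At 6 times the library mean 60, 27 and 18 bins passed, beside 0.960%, 0.851% and 0.352% of all bins. Enriched regions numbered 3, 1 and 0 with the adjusted Poisson tail at 1e-05, and with at least 8-fold 5 for TET2 and 1 for H2B S112GlcNAc. For the other changes the cause was not tested. OGT, with the fewest positions, has the widest intervals.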
